A study of Mus musculus with 8 samples.

Results

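Flag CUT&Tag peaks of 8 libraries were merged into 306466 union regions, and 11593 of them (3.78%) held a peak of native Nanog and a peak of NanogBiD and no peak of any other library. These 11593 regions, called members, are the subject here. CUT&Tag brings the transposase Tn5 to chromatin by an antibody, so that DNA around the target is cut, tagged and sequenced. Here it bound Flag, a short tag on the protein under study. Fibroblasts of mouse embryos (MEFs) were taken 3 days into reprogramming, and the 8 libraries carried Nanog, Oct4, Sox2 or Nr5a2, each as the native factor or as its BiD fusion (NanogBiD, Oct4BiD, Sox2BiD and Nr5a2BiD). Per the study's methods, the MEFs came from embryos of OG2 males, which carry an Oct4-GFP reporter, and 129 females, and the factors were delivered by retroviral vectors, so all 8 groups share the reporter, the infection and the medium. BiD is the N-terminal domain of SS18 that binds BRG1, joined by a short linker to the N-terminus of each factor. The library titles do not name any other factor delivered to the same cells. There was 1 library per group, so no value below has a replicate and none was tested between conditions. Intervals are 95% intervals and cover counting error over regions only.

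NANOG is a homeodomain transcription factor of the inner cell mass and of pluripotent stem cells, where it works beside OCT4 and SOX2. MEFs do not normally make it, and the Flag tag marks the delivered protein. Signal that open chromatin alone may give was not separated, since no control library was used. BRG1 is the ATPase of the BAF complex, which slides and evicts nucleosomes. Factors of the AP-1 (FOS and JUN), TEAD and RUNX families are known to occupy enhancers of fibroblasts.

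The sequence at the members is shown first at the strongest of them, because the motif counts below rest on such windows. Members were ranked by the lower of their Nanog and NanogBiD scores. Of the 20 strongest, only 10 had a match in the 101 bp around the native Nanog summit. The first 8 of these are printed on the plus strand of mm10, and windows without a match are not shown. Capitals mark matches on either strand to GCCATTA or its core CCATTA (NANOG), TGACTCA (AP-1, the same letters as TGAGTCA on the other strand), CATTCCA or CATTCCT (TEAD), AACCACA (RUNX) and CAGCTG (an E-box).
Member 2, chr3:69792987-69793087, AP-1 and TEAD: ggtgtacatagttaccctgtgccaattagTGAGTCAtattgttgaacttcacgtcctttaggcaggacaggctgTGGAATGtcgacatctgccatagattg
Member 4, chr1:47398653-47398753, NANOG and NANOG core: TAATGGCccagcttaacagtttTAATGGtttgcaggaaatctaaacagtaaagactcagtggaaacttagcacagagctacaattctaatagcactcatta
Member 7, chr19:61049528-61049628, RUNX: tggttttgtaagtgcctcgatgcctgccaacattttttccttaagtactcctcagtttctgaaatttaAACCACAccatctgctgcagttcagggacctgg
Member 11, chr4:6497510-6497610, E-box: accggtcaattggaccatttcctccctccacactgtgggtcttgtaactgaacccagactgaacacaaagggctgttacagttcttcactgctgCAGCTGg
Member 13, chr10:29894827-29894927, NANOG core: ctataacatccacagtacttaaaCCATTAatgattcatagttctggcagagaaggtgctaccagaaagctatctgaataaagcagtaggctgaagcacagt
Member 14, chr10:14464320-14464420, E-box: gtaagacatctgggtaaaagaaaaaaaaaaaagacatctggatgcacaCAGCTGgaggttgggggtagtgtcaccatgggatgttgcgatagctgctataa
Member 15, chr2:49840696-49840796, NANOG core: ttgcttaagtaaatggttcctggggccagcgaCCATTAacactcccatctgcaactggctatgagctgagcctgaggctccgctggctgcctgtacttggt
Member 16, chr3:25109149-25109249, E-box: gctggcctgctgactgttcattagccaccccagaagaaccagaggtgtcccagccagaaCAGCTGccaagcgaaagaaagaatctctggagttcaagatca

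Of the members with the full NANOG motif, 3 more are printed, which ranked 53, 60 and 92. They were chosen for this motif after values were seen, and are shown because the 7-letter form is the one counted below.
Member 53, chr6:108080863-108080963, NANOG and TEAD: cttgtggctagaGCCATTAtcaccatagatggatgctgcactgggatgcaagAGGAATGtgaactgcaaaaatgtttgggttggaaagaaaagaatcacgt
Member 60, chr9:37924364-37924464, E-box and NANOG: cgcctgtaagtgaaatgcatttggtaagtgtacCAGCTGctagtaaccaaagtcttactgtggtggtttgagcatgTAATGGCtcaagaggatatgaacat
Member 92, chr12:54242127-54242227, NANOG: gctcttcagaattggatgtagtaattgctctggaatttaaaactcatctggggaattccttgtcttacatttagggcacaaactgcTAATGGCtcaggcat

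Members 53 and 60 lay between genes, and member 92 within 2 kb of a start. Member 53 was 15.9 kb from the start of Setmar, with summits of 50 tags in native Nanog and 58 tags in NanogBiD. Member 60 was 5.87 kb from the start of Olfr878, an olfactory receptor gene, with 65 and 59 tags. Member 92 was 1.28 kb from the start of Gm24692 and 38.3 kb from that of Egln3, a prolyl hydroxylase that marks HIF proteins, with 48 and 46 tags.

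The members were selected on the presence and absence of peaks, so the following values describe the choice and support nothing further. Peaks of both Nanog libraries met in 52445 regions. Of these, 11593 had no other library, 7089 had 1, 10777 had 2, 6445 had 3, 6936 had 4, 5033 had 5 and 4572 had all 6. The library most often found beside Nanog was Sox2BiD, in 56.5% of the 52445 regions, followed by Oct4BiD in 42.9%, Nr5a2 in 40.3%, Nr5a2BiD in 38.5%, Sox2 in 33.8% and Oct4 in 32.8%. Sox2BiD also had the most peaks of all libraries (120594), and it was the sole other library in 3312 of the 7089 regions with 1. For the other factors, the regions of both libraries and no other numbered 15427 for Oct4, 20296 for Sox2 and 30814 for Nr5a2. Members held 15.9% of the 73465 native Nanog peaks and 15.3% of the 75769 NanogBiD peaks. Almost every member was simple, since 11518 of 11593 had exactly 1 peak of each library.

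**Figure D1:**
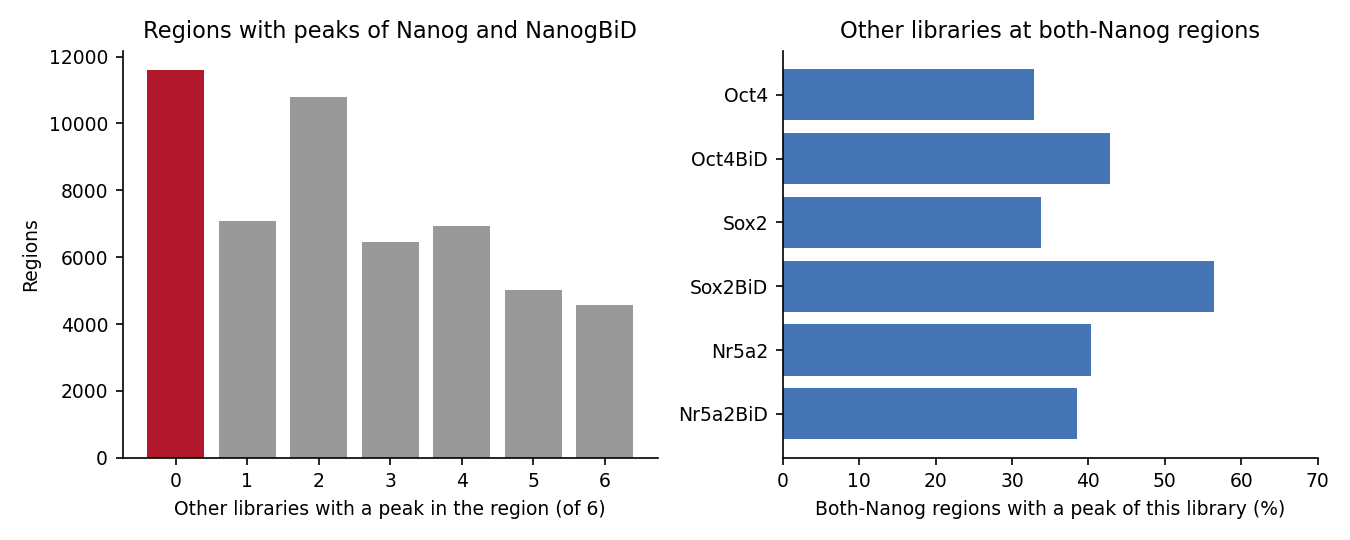
Left, bars give the number of regions with peaks of both Nanog libraries by how many of the 6 other libraries also had a peak, with the 11593 members in red. Right, bars give the percentage of all 52445 such regions with a peak of each other library, highest for Sox2BiD at 56.5%.

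The border of the set was not sharp. Of the members, 1905 had a score under 60 in at least 1 Nanog library, close to the lowest deposited score of 50, and 1091 regions were left out because 1 other library had a peak that itself scored under 60. Just inside, a member on chromosome 12 (70969525 to 70970414) scored 50 in native Nanog and 50.9 in NanogBiD. Just outside, a region on chromosome 1 (182249986 to 182251528) scored 409.8 in native Nanog and 524.8 in NanogBiD and was excluded by an Nr5a2BiD peak with a score of 50. The members lay amid peaks of other factors, with a median gap of 1882 bp to the nearest peak of another library. In 3.46% of members that gap was at most 100 bp, in 16.8% at most 500 bp and in 93.3% at most 10000 bp. Absence of a peak therefore describes the window of the member and not its neighbourhood.

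Members were weaker and narrower than the Nanog regions that other libraries shared. The native Nanog score of the members ran from 50 to 951.3 with a median of 120.2, and the NanogBiD score from 50 to 1104.9 with a median of 144.2. In the 40852 shared regions the medians were 177.8 and 197.2. The median length was 920 bp for members, 1638 bp for shared regions and 2536.5 bp for the 4572 regions of all 8 libraries. Both scores reached 300 in 5.75% (5.34 to 6.19) of members and in 17.4% (17 to 17.8) of shared regions. Among the 1000 native Nanog peaks with the highest score, 48 lay in members, and among the 1000 such NanogBiD peaks, 87 did. A union region grows with each library that adds a peak, so its length is bound to the rule. The highest-scoring peak stood for each library, and a longer region can hold more peaks, so the scores are not independent of the rule either.

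At the members, native Nanog summits were 6 to 76 tags high with a median of 16, and NanogBiD summits 8 to 93 tags with a median of 20. In tags as deposited, the NanogBiD summit was the higher one at 66.1% (65.3 to 67.0) of members and the native summit at 29.0% (28.2 to 29.8). The median log2 ratio of heights, NanogBiD over native, was 0.30, with quartiles at -0.12 and 0.72. It was 0.24 at shared regions, with quartiles at -0.11 and 0.58, and 0.25 at regions of all 8 libraries. Heights are not scaled to depth, and the study lists more read pairs for NanogBiD than for native Nanog, by a factor of about the size of these medians, so the shift and the depth cannot be told apart. With NanogBiD heights scaled to the median ratio of the shared regions, the median at members was 0.054, and the NanogBiD summit was the higher one at 53.2% (52.3 to 54.1). The heights given at single loci below are unscaled as well. NanogBiD was at least 2-fold higher at 15% (14.3 to 15.7) of members and native Nanog at 2.18% (1.92 to 2.46), and after this scaling the shares were 7.71% (7.23 to 8.21) and 4.51% (4.14 to 4.91). The summits of the 2 forms lay a median of 42 bp apart, with an upper quartile of 89 bp, and within 100 bp at 78.4% (77.6 to 79.1) of members.

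**Figure D2:**
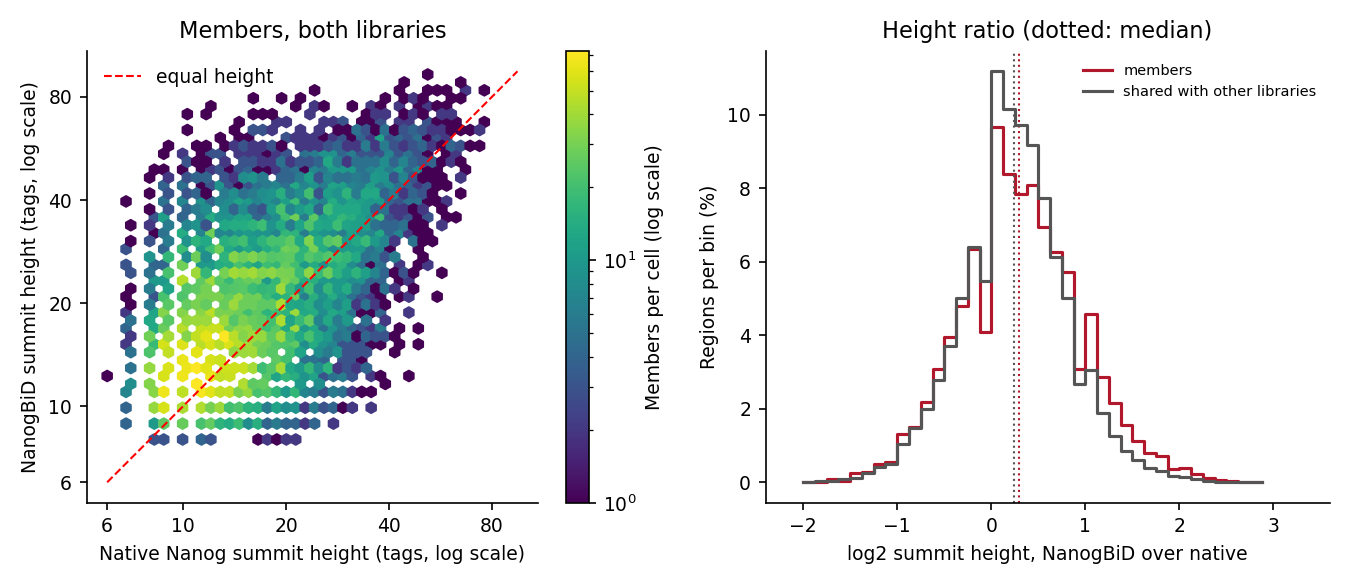
Left, summit heights of the 11593 members in tags, native Nanog on the x axis and NanogBiD on the y axis (both log scales), with the colour giving members per cell and the dashed line equal height. Right, the share of regions by log2 height ratio for members (red) and for shared Nanog regions (grey), with dotted lines at the medians of 0.30 and 0.24; equal heights fall in the bin to the right of 0.

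The sequence at the native Nanog summit was not used to choose the members. The rule sorts Nanog regions by peaks of other factors, so motif differences between members and shared regions are not independent of it. Enrichment is the share of 101 bp summit windows with a motif over its average share in equally long flanking windows, whose centres lay 500 bp left and right. The NANOG motif GCCATTA was found at 353 of 11593 members, 3.04% (2.74 to 3.37), against 0.897% of flanks, an enrichment of 3.39 (2.86 to 4.03). In Nanog regions shared with other libraries it was found at 1.58% (1.46 to 1.71), an enrichment of 1.88 (1.68 to 2.09), and at regions of all 8 libraries at 0.788% (0.552 to 1.09), an enrichment of 1.09 (0.727 to 1.64). The share over all union regions was 1.25%. The intervals of members and shared regions did not overlap, and members had the higher share also with the core CCATTA, at 9.51% (8.98 to 10.1) against 5.68% (5.46 to 5.91). In the regions of both libraries of another factor only, NANOG enrichment was 1.0 for Oct4 (interval 0.821 to 1.25) and 0.900 for Nr5a2 (0.770 to 1.05), near the flanks. For Sox2 it was 1.25 (1.06 to 1.47), slightly above the flanks. The match is still rare, and more than 9 in 10 members held neither form of it.

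The motifs of somatic factors were also enriched at the members, and since words differ in length and number, their shares do not rank them against NANOG. TEAD letters were found at 13.1% (12.5 to 13.7) of members, an enrichment of 3.63 (3.34 to 3.95). RUNX letters were found at 10.9% (10.4 to 11.5), an enrichment of 4.41 (3.99 to 4.87). The AP-1 motif was found at 8.99% (8.47 to 9.52), an enrichment of 6.04 (5.35 to 6.82). The E-box CAGCTG, which basic helix-loop-helix factors bind, was found at 8.26% (7.77 to 8.78), an enrichment of 2.13 (1.94 to 2.33). Over all union regions these shares were 7.08% for TEAD, 4.27% for RUNX, 6.41% for AP-1 and 5.92% for the E-box.

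RUNX enrichment differed more between the members and the regions of other factors than AP-1 enrichment did. It was 4.41 at members and 3.1 (2.92 to 3.28) at shared Nanog regions, but 1.41 for Oct4, 1.82 for Sox2 and 1.04 for Nr5a2 at the regions of both libraries of that factor only. TEAD was enriched 2.89-fold (2.75 to 3.02) at shared Nanog regions and 1.78-, 2.07- and 1.57-fold at the Oct4, Sox2 and Nr5a2 regions. AP-1 had a lower share at members than at shared Nanog regions, where it was found at 10.3% (9.97 to 10.6), while the intervals of the enrichments, 6.04 and 5.81 (5.47 to 6.16), overlapped, and the Sox2 and Nr5a2 regions were close behind at 5 and 4.12. Only the Oct4 regions, at 2.13, were far lower.

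Motifs of the other 3 factors were below their flanks at the native summit of the members. The octamer ATGCAAAT, bound by OCT4, was found at 40 members, an enrichment of 0.606 (0.425 to 0.863). The SOX letters CCATTGTT were found at 27, an enrichment of 0.635 (0.412 to 0.980), and the NR5A letters (TCAAGGTCA, CCAAGGTCA, TCAAGGCCA or CCAAGGCCA) at 42, an enrichment of 0.459 (0.328 to 0.642). The same motifs were enriched 8.06-, 5.20- and 9.35-fold at the regions of their own factor only. The members were defined by the absence of those libraries, so a low share of their motifs is not independent of the rule. At shared Nanog regions the octamer enrichment was 1.25 (1.08 to 1.44). The homeobox letters TAATTA, at 2.50%, were also below their flanks at the members (0.610), while CTCF (1.56, interval 0.579 to 4.18) and the KLF letters CCACACCC (1.14, interval 0.862 to 1.5) could not be told from their flanks at these counts.

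**Figure D3:**
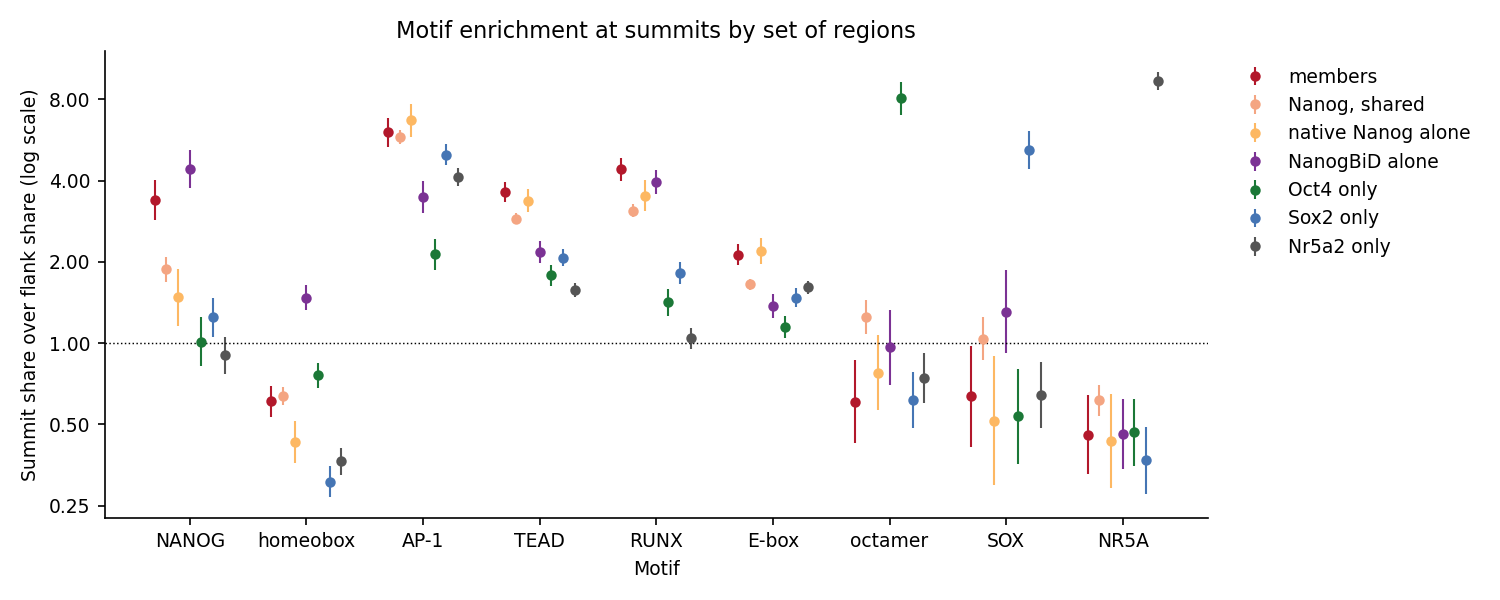
Enrichment of 9 motifs at summits (share of summit windows over share of flanks, log scale) in 7 sets of regions, with points for the estimate and bars for the 95% interval from counts. The members, in red, lie at 3.39 for NANOG and 4.41 for RUNX, and the regions of Oct4, Sox2 or Nr5a2 only lie highest at their own motif.

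Motif matches gathered at the summit. In bins of 50 bp, the NANOG motif occurred 16.5 times per 1000 members in the bin at the native summit and 4.31 and 3.36 times in the bins 500 bp to its left and right. At shared Nanog regions these values were 8.59, 4.28 and 4.53. For RUNX they were 60.7, 11.4 and 12.8 at members and 40, 11.1 and 12.1 at shared regions. TEAD occurred 79.0 times per 1000 members at the summit and 60.3 times per 1000 shared regions, while AP-1 occurred 51.1 times and 59.4 times. Matches in the members' windows lay a median of 23 bp from the native summit for NANOG, 21 bp for AP-1 and TEAD and 23 bp for RUNX. Around the NanogBiD summit of the same members, the NANOG motif was found at 3.23% (2.91 to 3.56), an enrichment of 3.9 (3.27 to 4.64), and AP-1 at 9.17% (8.65 to 9.71), an enrichment of 5.70 (5.07 to 6.41). The SOX letters had an enrichment of 0.689 there, with an interval (0.458 to 1.04) that held 1.

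**Figure D4:**
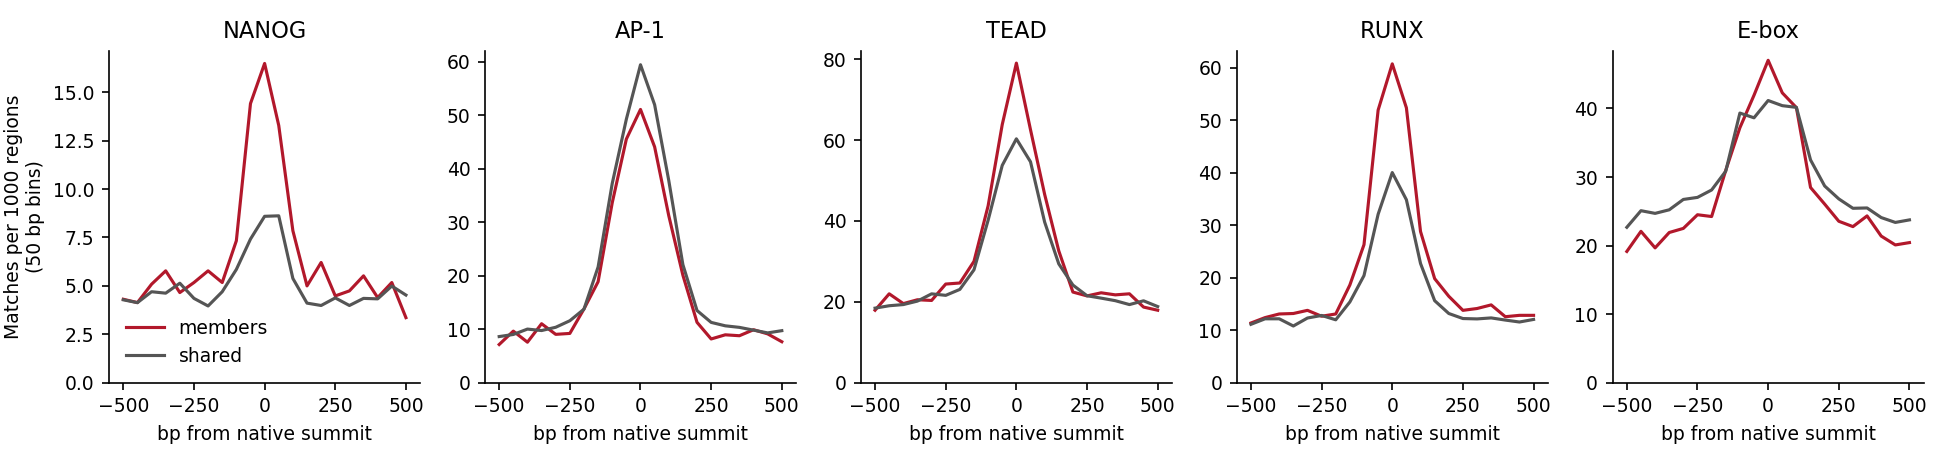
Motif matches per 1000 regions in bins of 50 bp, by distance in bp from the native Nanog summit, for the 11593 members (red) and the Nanog regions shared with other libraries (grey). NANOG, TEAD and RUNX peak higher in members (16.5, 79.0 and 60.7), and AP-1 peaks higher in shared regions (59.4 against 51.1).

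A count of all 8-letter words, made without the motif list, was led by words of AP-1, RUNX, TEAD and the NANOG core. There were 1081 such words in at least 100 member windows, with both strands joined. The highest enrichment over the flanks was that of GTGAGTCA, 9.08, an AP-1 word found at 2.47% of members. The RUNX word AACCACAA had an enrichment of 8.40 at members and 4.90 at shared Nanog regions. AGGAATGC, a TEAD word, reached 6.17 at members and 4.51 at shared regions. GGCCATTA was the highest word with the NANOG core, at 6.06 in members and 3.15 in shared regions, followed by GCCCATTA at 5.61 and 2.26. Of the 50 most enriched words, 6 held the AP-1 motif, 4 RUNX, 7 TEAD, 5 the NANOG core and 0 the E-box, and most of the other 28 were, as read by eye, offset copies or single-letter variants of these.

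Members whose summit was higher in NanogBiD held the NANOG motif more often. When members were split into 5 equal groups by the log2 height ratio, the share with GCCATTA was 1.60% in the group highest in native Nanog, then 2.28%, 3.1% and 2.98%, and 5.26% in the group highest in NanogBiD. The last share was 3.30 times the first (2.28 to 4.77). Enrichment over the flanks ran from 1.54 (1 to 2.37) to 7.39 (5.03 to 10.9). The homeobox letters moved the same way, from 1.55% to 3.54%, while AP-1 was found at 10.2% of the first group and 7.03% of the last, and TEAD at 15.2% and 10.1%. RUNX showed no such order, with 11% in the first group and 12.2% in the last. At the NanogBiD summit the NANOG shares of the first and last groups were 1.81% and 5.61%. Heights are unscaled here, and depth also decides which regions reach the peak threshold in both libraries. The part of depth in these shares was not tested.

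Regions with a peak of 1 Nanog form and of no other library differed in the same direction for NANOG and AP-1. Both splits use the same Nanog libraries, so this is not separate support, and the part of depth was not tested here either. Windows were centred on the NanogBiD summit where NanogBiD stood alone, and on the native summit for native Nanog alone and for members. Where NanogBiD stood alone (11250 regions), the NANOG motif was found at 4.08% (3.72 to 4.46), an enrichment of 4.41 (3.75 to 5.20), and AP-1 at 5.02% (4.63 to 5.44). Where native Nanog stood alone (8152 regions), NANOG was found at 1.4% (1.15 to 1.68), an enrichment of 1.48 (1.2 to 1.89), and AP-1 at 10% (9.39 to 10.7). The members lay between them in both motifs, but above both in RUNX, at 10.9% against 7.53% for native Nanog alone and 9.47% for NanogBiD alone. TAATTA was above its flanks at the regions of NanogBiD alone (1.48, interval 1.33 to 1.64) and below them at the regions of native Nanog alone (0.431, interval 0.361 to 0.515).

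Some motif shares also differed by peak strength. Members were split into 5 equal groups by their lower score. From the weakest to the strongest, the RUNX share went from 9.53% to 13.4% and the TEAD share from 11.2% to 15.3%. The NANOG share was 2.72% in the weakest and 4.18% in the strongest, but lowest in the middle group. AP-1 was found at 8.75% (7.63 to 9.98) of the weakest and 10.4% (9.18 to 11.7) of the strongest, with overlapping intervals and the lowest share in the middle group. Its enrichment over the flanks was 8.46 in the weakest and 6.60 in the strongest. Even the weakest group, with scores from 50 to 63.0, had a NANOG enrichment of 2.68 (1.84 to 3.91).

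Few members held more than 1 of the 4 motifs, but flanks held 2 of them more rarely still. At least 1 of NANOG, AP-1, TEAD and RUNX was found at 32.5% of members and at 8.28% of flanks. Exactly 2 were found at 401 members (3.46%) and at 0.190% of flanks, while 3 were found at 6 members and all 4 at 0. Flanks held single motifs less often too. The share to expect from the single motifs was not computed, so the contrast does not show that motifs occur together. Members with the NANOG motif had RUNX letters less often, at 5.95% (3.72 to 8.95) against 11.1% (10.5 to 11.7) of members without it. Likewise AP-1 was found at 5.46% (4.27 to 6.85) of members with RUNX letters and at 9.42% (8.86 to 10) of those without. With TEAD letters AP-1 was found at 7.51% (6.23 to 8.95), and without them at 9.21% (8.65 to 9.79). TEAD was found at 11.2% (9.54 to 13.1) with RUNX letters and 13.3% (12.7 to 14) without. In these last pairs the intervals overlapped. TEAD was found in similar shares with the NANOG motif, 14.2% (10.7 to 18.2), and without it, 13.1% (12.4 to 13.7). The remaining 7827 members (67.5%) held none of the 4 in this window.

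By position, the members were distal sites. Promoters, taken as 2 kb to each side of an annotated start, held the native summit of 10.4% (9.82 to 10.9), while coding exons held 0.604%, other exons 1.59%, introns 44.2% (43.3 to 45.1) and the space between genes 43.3% (42.4 to 44.2). Windows of this kind around start sites cover 10.7% of the assembled chromosomes, so members were no more frequent there than bases of the genome. Of shared Nanog regions 29.8% (29.4 to 30.2) were at promoters, and of regions of all 8 libraries 66.9% (65.5 to 68.2). The members were close in this to the regions of both Oct4 libraries only (9.54%) and both Sox2 libraries only (8.51%), and below those of both Nr5a2 libraries only (15%). The median distance to the nearest start site was 15.3 kb for members and 8.33 kb for shared regions. G and C made up 43.9% of bases at member summits, 48.6% at shared Nanog regions and 56.4% at regions of all 8 libraries, and their part in the motif shares was not tested. Repeats marked in the assembly covered 10.2% of the bases at member summits and 24.8% at their flanks.

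The 20 strongest members were distal as well, with 11 between genes, 7 in introns and 2 at promoters. The strongest, at chr16:92877774-92879139, had Gm49723 as the gene with the nearest start (16.5 kb away) and was 52.2 kb upstream of Runx1, which encodes a RUNX factor. Its score was 911.0 in native Nanog and 895.2 in NanogBiD, with summits of 75 and 68 tags 26 bp apart. None of the 5 marked motifs was found in its window. Around the start of Runx1, 2 further members were found, at 1.77 kb (21 tags in native Nanog and 35 in NanogBiD, with AP-1 and E-box letters) and at 58.0 kb (23 and 12 tags).

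Of the others, 2 lay within 10 kb of a protein-coding start. Member 15, on chromosome 2 (49840043 to 49841435), was at the promoter of Lypd6b, 0.656 kb from its start, with summits of 51 and 72 tags. Member 20, in an intron of Carmil1, which encodes a regulator of actin capping, was 8.49 kb from its start, with 48 and 60 tags. Members 5, 7, 9, 14 and 16 lay in introns of Slc35f1, Grk5, Mgat5, Adgrg6 and Naaladl2. Member 5 had the highest NanogBiD score of all members (1104.9, against 792.7 in native Nanog), with 46 and 63 tags, and member 7 the highest native score (951.3, against 740.4 in NanogBiD), with 62 and 53 tags. Member 2 was 46.6 kb from the start of Nmd3, a ribosome export adaptor. The nearest start to member 8 was that of Gm38541, at 1.74 kb. For the other 10 the nearest start was that of a gene known by a Gm number (Gm48744, Gm4852, Gm49043, Gm5576, Gm11803, Gm6986, Gm48215, Gm47998, Gm41279 and Gm22444), and the protein-coding gene with the nearest start lay 43.3 kb away or more.

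Genes were then linked to members by distance, which does not show that a site acts on a gene. Of 21938 protein-coding genes, 11004 (50.2%) had at least 1 member summit within 100 kb of their start, and 7.50% had 3 or more. Fibroblast and mesenchymal genes exceeded this background, with 33 of 42 (78.6%, interval 63.2 to 89.7), 9 of them with 3 or more members. Epithelial genes followed with 18 of 24 (75%, interval 53.3 to 90.2). Among these, Krt8 and Krt18 had the same member, and Cldn3 and Cldn4 shared members. The interval treats such neighbours as independent genes, so it may be too narrow. Pluripotency genes did not exceed the background, with 17 of 40 (42.5%, interval 27.0 to 59.1). Trophoblast and endoderm transcription factors had 14 of 22 (63.6%), BAF subunits 13 of 27 (48.1%), neural transcription factors 14 of 30 (46.7%), ribosomal proteins 13 of 30 (43.3%) and AP-1 family genes 6 of 20 (30%), all with intervals that held 50.2%.

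These shares were not particular to the members. The fibroblast list was also above the background for shared Nanog regions (100% against 84.2%), for regions of both Oct4 libraries only (83.3% against 62.9%), of both Sox2 libraries only (76.2% against 62.2%) and of both Nr5a2 libraries only (90.5% against 83.5%). All 20 AP-1 family genes had a shared Nanog region within 100 kb, though only Fosb, Fosl2, Atf7, Batf, Jdp2 and Maf had a member, 1 each, and Batf and Jdp2 had the same one. For ribosomal proteins and BAF subunits the share with a shared Nanog region was 100% as well. The size and spacing of genes differ between lists, and their part was not tested.

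Among fibroblast genes, Col1a2 (ENSMUSG00000029661.16), a chain of type I collagen, had the most members, 6, with NanogBiD summits of 14 to 42 tags and native summits of 11 to 22 tags. At the member 66.7 kb downstream of its start the heights were 19 and 42 tags, and at the 5 others the forms were within 7 tags of each other. Fbn1 (fibrillin, a microfibril protein) had 5 members, of which the one 59.0 kb into the gene was highest, with 43 tags in native Nanog and 49 in NanogBiD. Tgfb2, a TGF-beta ligand, had 5. One of them, 55.8 kb downstream of the start (chromosome 1, 186649112 to 186650662), had 10 tags in native Nanog and 65 in NanogBiD, with scores of 68.2 and 601.9. Another, 89.6 kb upstream, had 34 and 29 tags. Which library had the higher summit thus varied from site to site around 1 gene, with 1 library per form.

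The mesenchymal transcription factor gene Tbx18 had 5 members, from 15 tags in native Nanog against 18 in NanogBiD, a difference of about the size of the depth factor, to 20 against 43 tags. Zeb2, a repressor of epithelial genes, had 4, and the 2 with the highest scores had 37 against 35 tags and 17 against 29 tags. Acta2, smooth muscle actin, had 4, of which 3 were higher in NanogBiD (59 against 23, 39 against 27 and 54 against 19 tags) and 1 higher in native Nanog (15 against 9 tags). Osr1, Meox1 and Cdh2 had 3 each. No member lay within 100 kb of the starts of Col1a1, Col3a1, Twist1, Snai1, Snai2, S100a4, Lox, Pdgfrb and Cnn1 of the same list.

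On the epithelial side, Cdh1, the E-cadherin gene, had 5 members, as many as Fbn1. At 3 of them NanogBiD was higher, most at the one 57 kb downstream of the start (40 against 10 tags), and at the one 98.2 kb downstream native Nanog was higher (35 against 20 tags). Cldn4 and Rab25 had 3 each. No member lay within 100 kb of the starts of Epcam, Krt19, Cldn7, Ocln, Tjp1 and Ovol2. In the remaining lists, Neurod1 had 4, and Foxa1, Rps14, Rplp1, Smarcd1, Smarce1 and Dpf1 had 3 each.

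Of the pluripotency genes, Zfp281 had the most members, 3, with 18, 12 and 15 tags in native Nanog and 45, 19 and 37 tags in NanogBiD. Nanog, Klf4, Dppa2, Dppa4, Tet2, Lefty1 and Rif1 had 2 each, and those of the neighbours Dppa2 and Dppa4 had the same scores. Among 9 genes that the study singles out as activated or as helping reprogramming, 4 had a member within 100 kb. This was 44.4% (13.7 to 78.8), against 50.2% of all protein-coding genes. Klf4 had 2, with 16 and 19 tags in native Nanog and 11 and 10 tags in NanogBiD, so native Nanog was higher at both. The member near Sox2 had 16 and 15 tags, the one near Olig3 8 and 11 tags, and the one near Dppa5a 11 and 17 tags. All of these scored under 100 in at least 1 form. Sall4, Esrrb, Mir302a, Sox15 and Foxb1 had none, although Sall4 had 2 and Sox15 7 Nanog regions shared with other libraries. Esrrb had 1 native and 11 NanogBiD peaks within 100 kb, of which 1 region held both forms and another library.

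The gene with the most members was Flrt2 (ENSMUSG00000047414.6, chromosome 12, 95692226 to 95785215), which encodes a cell adhesion and FGF-pathway protein of mesenchyme, with 10. Its window held 3 shared Nanog regions. Upstream of the start, the 5 members had native summits of 15 to 22 tags and NanogBiD summits of 11 to 16 tags, and none was higher in NanogBiD. In the gene body the order was the opposite, with 13 against 24, 18 against 23, 37 against 71 and 12 against 18 tags at its 4 intronic members. The last, past the 3' end, had 34 against 18 tags. None of the 10 windows held CCATTA.

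Tnfsf18, a TNF-family ligand gene, had 8 members, and 10 genes tied at 7: Cdcp1, Cped1, Depdc1b, F13a1, Nedd9, Ptger4, Rbpj, Spry1, Tmem158 and Tmprss11e. Rbpj is the DNA-binding factor of NOTCH signalling, and Spry1 an inhibitor of receptor tyrosine kinase signalling. Cdcp1 and Tmem158 are neighbours on chromosome 9 and share members. Among these 12 genes, the highest lower score of a member ran from 132.5 at F13a1 to 468.5 at Cdcp1 and Tmem158.

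**Figure D5:**
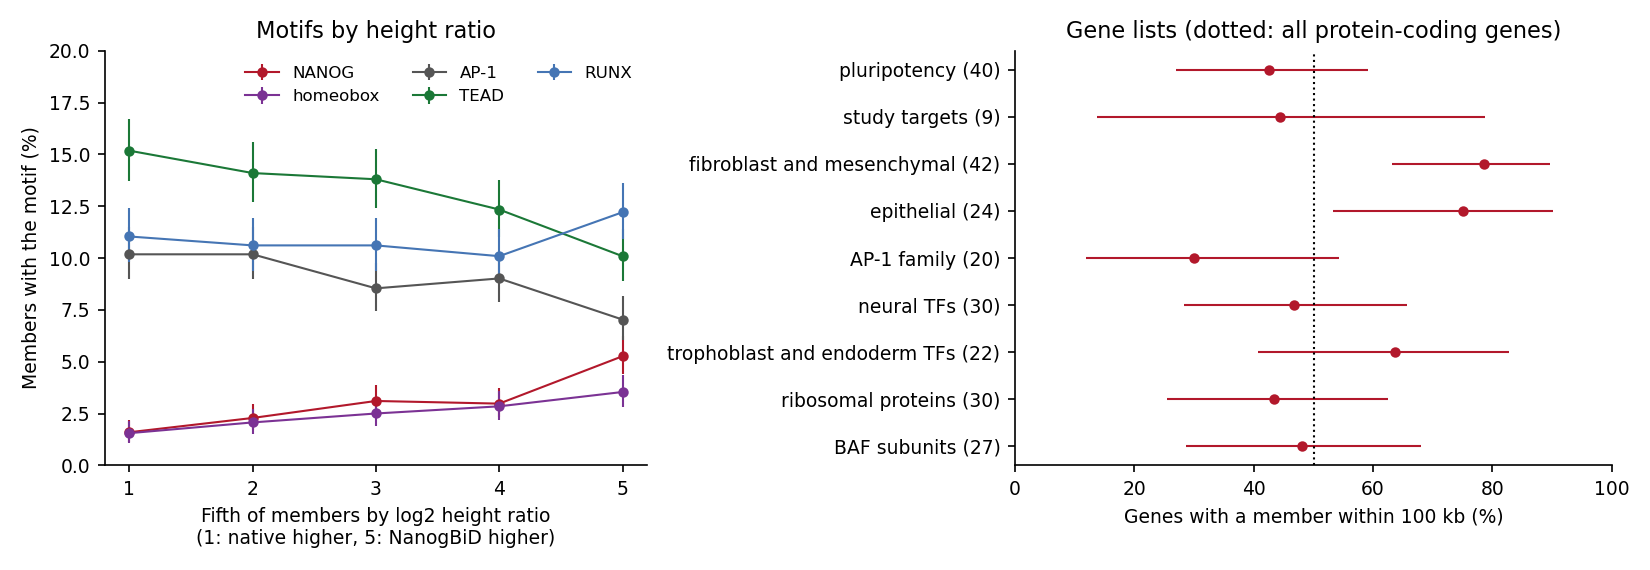
Left, the percentage of members with 5 motifs at the native summit in 5 equal groups by the log2 height ratio (NanogBiD over native), with exact 95% intervals; NANOG goes from 1.60% to 5.26% and AP-1 from 10.2% to 7.03%. Right, the percentage of genes in 9 lists (number of genes in brackets) with a member within 100 kb of the start, with exact 95% intervals and a dotted line at 50.2% for all protein-coding genes.

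One member lay on the gene of the tagged factor itself. On chromosome 6, a region at 122711275 to 122712051 had its summit in the coding exon of Nanog at 122711538 to 122711803, with 37 tags in native Nanog and 25 in NanogBiD and scores of 120.2 and 63.9. The delivered vectors carry this coding sequence, so reads of vector DNA and of the genomic site cannot be told apart there. Another coding exon of the gene also had summits in both libraries, with 57 and 47 tags, but the region was no member because Oct4BiD had a peak of 22 tags in it. This member counts among the 2 near Nanog and is the 1 near Dppa3.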

How the data were processed

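The 8 Flag CUT&Tag libraries were compared as lists of peaks and summits. Per the labels, reads were processed with Trim Galore 0.6.4, Bowtie2 2.4.5 (mm10), SAMtools 1.16.1 and MACS 1.4.2. Per the study's methods, repetitive, poorly mapped and mitochondrial reads were removed and peaks were called without a shift model, and no control library is named. The study gives replicates as merged before calling and elsewhere CUT&Tag as performed once. Peak scores, as deposited, are -log10 of the p-value from MACS multiplied by 10, and the lowest in every list was 50. Summit heights were deposited as a signal in whole tags that the authors did not scale to depth. A deeper library yields more peaks, so absence of a peak depends on depth.

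Peaks of the 8 lists were merged at 1 bp overlap. In a region, the peak with the highest score stood for its library. Motifs were searched on both strands within 50 bp of the summit in GRCm38, whose repeats are soft-masked. CCATTA lies within GCCATTA, and the SOX letters share CCATT with it. CTCF was searched by its consensus. Summits off chromosomes 1 to 19, X and Y were left out. Shares carry exact Clopper-Pearson 95% intervals, and enrichments intervals from counts on the log scale. Promoters were 2 kb either side of GENCODE M21 start sites. No test was run, because each group has 1 library. Union, choice of members and motif counts were tested on simulated data. Python 3.11.15, NumPy 2.4.6 and SciPy 1.17.1 were used.

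Members and gene lists were chosen with earlier results of these data known. Genes named are those nearest to the 20 members with the highest lower score, list genes with at least 3 members within 100 kb, the 9 study targets, and the 10 protein-coding genes with the most members, ties included. Others were named after their values were seen. Alternatives covered the spacing to other peaks, summit distance, equal peak numbers, score and height limits, omitted libraries, window, flank, summit, motif core, promoter and gene distances.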

Additional observations from a re-analysis of the deposited data

How the results depend on the processing

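No alternative reversed the direction of an enrichment, of the median log2 height ratio or of the ratio of NANOG shares between groups. Counts and shares have no direction to reverse, and several of them moved. The number of members was 11593, 9640 with no peak of another library within 500 bp, 9107 with both summits within 100 bp and 10136 with the 50000 highest-scoring peaks per library. Limiting Nanog peaks to a score of at least 100 left 5499. Without 1 of the other libraries it was 11954 to 15060, the latter without Sox2BiD. The NANOG enrichment of 3.39 became 2.79 in windows of 100 bp to either side and 2.16 with CCATTA. The other 5 settings gave 3.18 to 4. For AP-1, 6.04 became 5.05 in windows of 100 bp and 5.03 with flanks at 1000 bp. The promoter share of 10.4% became 3.13% within 500 bp, 5.91% for protein-coding start sites, 11.9% with 50000 peaks per library and 9.78% without other peaks within 500 bp. Genes with a member made up 30.4% within 50 kb, 7.01% within 10 kb, and 29.3% with members scoring at least 100 in both. The median log2 height ratio of 0.30 became 0.21 at 2938 members of at least 20 tags in both libraries, and 0.054 with NanogBiD heights scaled to the median ratio of shared Nanog regions, a setting chosen after seeing the data. The ratio of NANOG shares between the last and first of 5 groups by height ratio was 3.30, and 2.19 with CCATTA; the alternatives for this ratio were chosen after seeing the data. No paired analysis was possible because each group has 1 library and no test was run. Depth was not varied, and a region leaves the set when any of 6 lists reaches the threshold.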

Other observations

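Members were found on chromosomes 1 to 19, X and Y. On chromosomes 1 to 19 there were between 3.32 (chromosome 7) and 5.45 (chromosome 10) members per Mb, on chromosome X 1.88, and on chromosome Y 1 member in all. Native Nanog peaks were also sparse on chromosome X, at 10.7 per Mb against 24.2 to 33.9 on chromosomes 1 to 19, and members per 100 native peaks were 17.6 there and 13.3 to 17.2 on chromosomes 1 to 19. The median distance from a member to the nearest other member was 49.1 kb, and 12.7% of members had another within 10 kb.

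CpG dinucleotides made up 1.08% of positions at member summits and 0.865% at their flanks, against 2.53% and 1.70% at Nanog regions shared with other libraries and 5.20% and 3.58% at regions of all 8 libraries. Marked repeats covered 26.2% of the bases at summits of both Oct4 libraries only, the same as their flanks, compared with 10.2% at member summits. The catalytic BAF subunit gene Smarca4, which encodes BRG1, had 1 member within 100 kb of its start, in an intron 31.8 kb downstream, with 19 tags in native Nanog and 20 in NanogBiD.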
